A study of Mus musculus with 10 samples.

Results

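The genes described here are 10 markers of endothelial cells and of the blood-brain barrier, followed as ribosome footprints in the developing mouse neocortex. They were chosen by symbol, each symbol matched 1 Ensembl identifier, and they are 10 of the 22373 genes in the count table. Cldn5, Pecam1 and Esam encode junction and adhesion proteins, Kdr, Flt1 and Tek encode receptors for vascular growth factors, Slc2a1, Mfsd2a and Abcb1a encode transporters, and Ly6c1 encodes a surface antigen. Ribosome profiling (Ribo-seq) counts mRNA fragments protected by ribosomes, so a footprint count depends on how much mRNA there is and on how densely ribosomes sit on it. Neocortex came from wild-type CD-1 mice of both sexes at 4 embryonic stages (E12.5, E14, E15.5 and E17, in days of a timed pregnancy) and in newborn pups at P0. Each stage had 2 libraries, each made from a pool of brains, without cycloheximide and with digestion by RNAse-T1 and RNAse-A in all groups. The stages trace neurogenesis from the first neurons to its end, and no group was treated.

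Vessels enter the embryonic neocortex from a plexus on its surface and branch inwards, led by tip cells that respond to VEGF through Kdr, while Flt1 binds VEGF and limits that response. Wnt signals from neural cells induce the barrier: endothelial cells then seal their junctions with claudin-5, take up glucose through Slc2a1, suppress transcytosis with Mfsd2a and return drugs to the blood through Abcb1a. The tissue was analysed whole. Fewer endothelial cells, fewer footprints per endothelial cell and a change in the tissue dissected along with the neocortex cannot be told apart.

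The libraries held between 7544404 and 36129988 counts. Levels are given as CPM, counts per 1000000 counts of the TMM-scaled library, and 1 CPM corresponds to between 9.19 counts in P0 replicate 1 and 41.9 counts in P0 replicate 2. The P0 libraries differed more from each other than those of the embryonic stages: the log2 ratio of replicate to replicate had an SD over well-counted genes of 0.539 at P0 and 0.127 to 0.221 elsewhere, and over the 10 genes followed here one of 0.961 at P0 and 0.308 to 0.384 elsewhere. The neocortical markers Emx1, Tbr1 and Neurod6 were present in every library, with Emx1 lowest at 12.3 CPM in P0 replicate 2. All 10 endothelial and barrier genes had at least 1 count in every library. CPM is not corrected for gene length, so each gene is compared only with itself.

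Junction and adhesion genes were read first. Cldn5, the main claudin of the brain endothelial tight junction, stood at 9.57 and 9.99 CPM in the E12.5 libraries, 10.3 and 13 in those of E14, 4.7 and 3.97 in those of E15.5, 7.3 and 8.37 in those of E17, and 5.76 and 2.63 in those of P0. Both libraries of E14 lay above all others, both of E17 lay between those of E12.5 and E15.5, and the ranges of E15.5 and P0 overlapped. Pecam1, an adhesion molecule of endothelial cell contacts, stood at 7.98 and 9.35 CPM in the E12.5 libraries, 5.21 and 7.16 in those of E14, 1.9 and 1.69 in those of E15.5, 2.19 and 2.52 in those of E17, and 1.41 and 1.55 in those of P0. No neighbouring pair of its 5 stage ranges overlapped when the stages were ordered by mean, from E12.5 through E14, E17 and E15.5 to P0. Esam, another adhesion molecule of endothelial junctions, had 3.96 and 3.63 CPM in the E12.5 libraries, 2.96 and 3.52 in those of E14, 0.874 and 0.507 in those of E15.5, 1.65 and 1.31 in those of E17, and 1.41 and 0.883 in those of P0. Its E15.5 libraries were the lowest, and the ranges of E17 and P0 overlapped.

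The 3 receptor genes had the fewest counts among the genes that were tested. Kdr, the main signalling receptor for VEGF-A, was at 4.46 and 4.38 CPM in the E12.5 libraries, 2.56 and 3.55 in those of E14, 0.603 and 0.549 in those of E15.5, 1.14 and 1.13 in those of E17, and 0.653 and 0.31 in those of P0. Every library of E12.5 and E14 was more than 2 CPM, whereas none of the later libraries reached that level. Flt1 was at 2.26 and 1.94 CPM in the E12.5 libraries, 1.28 and 1.58 in those of E14, 0.633 and 0.422 in those of E15.5, 1.14 and 1.39 in those of E17, and 0.326 and 0.263 in those of P0. Its stage means had the same order as those of Pecam1, but its E17 range overlapped that of E14. Tek, the receptor for angiopoietins, was at 2.09 and 2.13 CPM in the E12.5 libraries, 1.86 and 1.52 in those of E14, 0.211 and 0.253 in those of E15.5, 0.445 and 0.488 in those of E17, and 0.109 and 0.239 in those of P0. After E14 these values rest on few footprints: Tek had 13 counts in the E15.5 libraries together, 27 at E17 and 11 at P0.

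Among the transporters, Slc2a1, the glucose carrier GLUT1 that other cells such as fetal red cells also make, had the largest counts of the 10 genes, with 6190 in all libraries. Its level was 50.1 and 53.9 CPM in the E12.5 libraries, 38.5 and 39.9 in those of E14, 10.6 and 9.42 in those of E15.5, 15.4 and 16.5 in those of E17, and 6.09 and 3.6 in those of P0. No neighbouring stage ranges overlapped, and the mean fell from 52 ± 2.71 CPM (SD, n = 2) at E12.5 to 4.85 ± 1.76 (SD, n = 2) at P0. Mfsd2a, a lipid transporter, was at 5.39 and 5.16 CPM in the E12.5 libraries, 4.33 and 5.04 in those of E14, 2.41 and 1.77 in those of E15.5, 3.97 and 3.23 in those of E17, and 2.5 and 1.69 in those of P0. Its ranges at E15.5 and P0 overlapped and both lay below that of E17. Abcb1a, which encodes P-glycoprotein, had 11 and 9 counts in the E12.5 libraries, 6 and 10 in those of E14, 2 and 1 in those of E15.5, 7 and 6 in those of E17, and 1 and 26 in those of P0. With 79 counts over all libraries it stayed below the minimum of 32 footprints in a stage and was not tested, and its P0 value rests on replicate 2.

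Ly6c1, a surface protein of brain endothelium that is also found on some blood cells, had a different order of stages, with E17 and P0 highest. It stood at 2.86 and 1.53 CPM in the E12.5 libraries, 1.63 and 3.11 in those of E14, 1.45 and 1.82 in those of E15.5, 5.78 and 9.99 in those of E17, and 5.33 and 7.09 in those of P0. All 4 libraries of E17 and P0 lay above all 6 earlier ones, while the ranges within each of these sets overlapped.

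**Figure D1:**
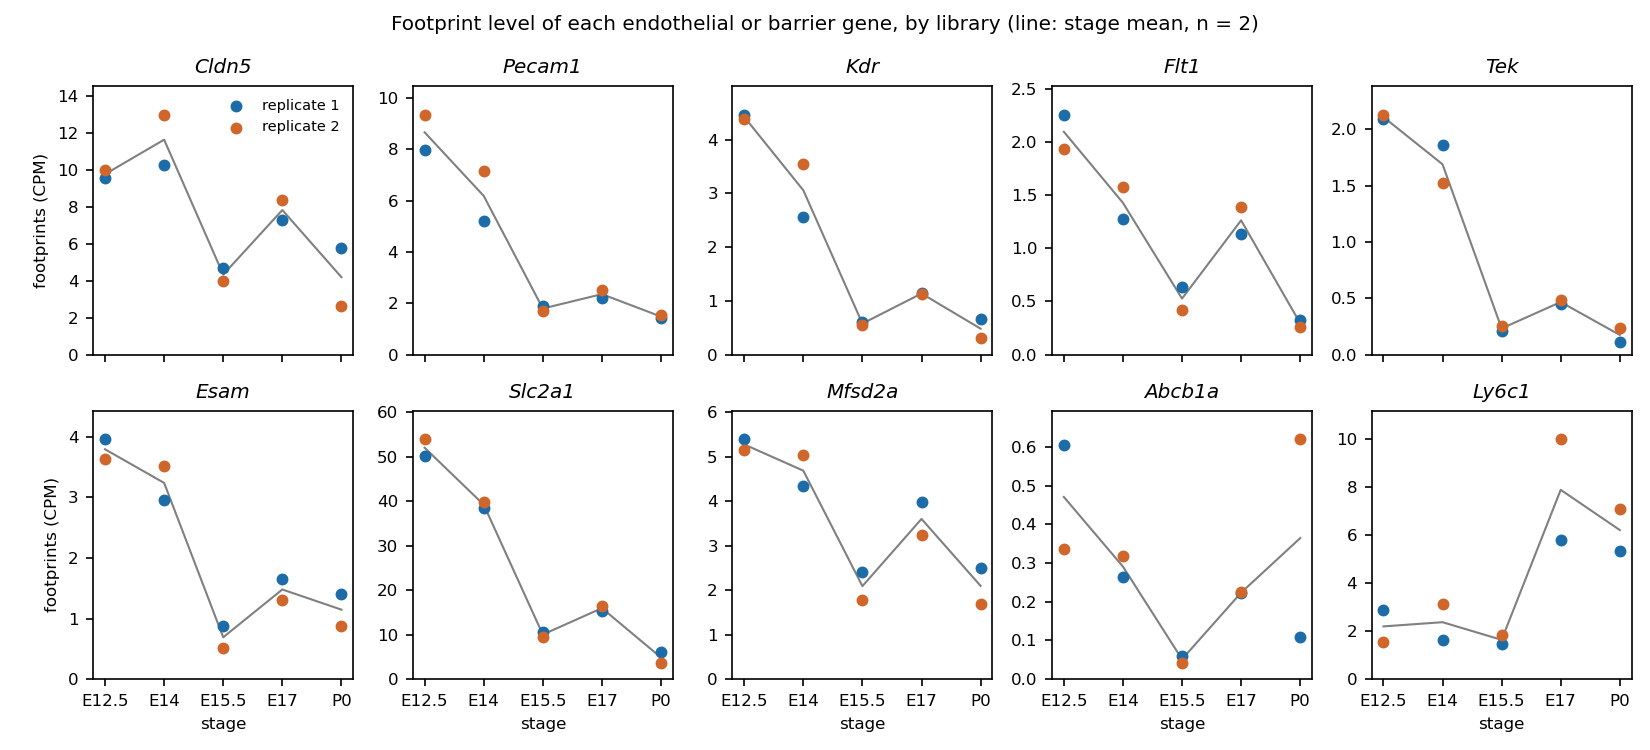
Footprint level of each of the 10 genes in CPM (vertical axis, from 0, a separate scale for each gene) at the 5 stages (horizontal axis), with 1 point per library and a line through the stage means (n = 2). Slc2a1 went from 50.1 and 53.9 CPM at E12.5 to 6.09 and 3.6 at P0, whereas Ly6c1 reached its highest values, 5.78 and 9.99 CPM, at E17.

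Changes between stages were tested with limma-voom over all genes that passed the filter, 13484 in number and 9 of the 10 genes followed here, and a call required a Benjamini-Hochberg adjusted p below 0.05 together with an absolute log2 fold change of at least 0.32. Of these 9, Slc2a1, Cldn5, Pecam1, Esam, Mfsd2a and Ly6c1 met the minimum of 32 footprints in all 5 stages, Kdr in 4, Flt1 in 3 and Tek in 2. Kdr, Flt1 and Tek thus passed through the stages where they are high, and counts of calls that include them are a description only. Across the 5 stages, the limma-voom F test against E12.5 called 9 of 9, beside 63.8% of all genes tested.

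From E12.5 to E14 none of the 9 genes was called by limma-voom (0 higher beside 0.497% of all genes, 0 lower beside 0.141%). Cldn5 and Ly6c1 had positive fitted log2 fold changes and the other 7 had negative ones, with a median of -0.35 beside -0.00149 over all genes tested. At an unadjusted p under 0.05, 4 of the 9 genes passed, Pecam1 (-0.49), Kdr (-0.52), Flt1 (-0.51) and Slc2a1 (-0.41), beside 15.8% of all genes tested (2137 of 13484). The edgeR quasi-likelihood test called 0 and DESeq2 called 0, with 7 adjusted p-values that DESeq2 left undefined. Without P0 replicate 1 or P0 replicate 2, limma-voom called Slc2a1 as lower (adjusted p = 0.0261 and 0.0282), and the share of all genes called went from 0.638% to 7.85% and 7.79%.

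From E14 to E15.5, limma-voom called 8 of 9 endothelial and barrier genes as lower, beside 19.6% of all genes tested, and 0 as higher, beside 16.5%, and the median log2 fold change over the 9 was -1.77 beside -0.00863 over all genes. Flt1 and Tek fell below the filter's minimum at E15.5, and of the 7 genes that met it at both stages 6 were called. Kdr fell 5.16-fold (log2 fold change -2.37 ± 0.298 SE, adjusted p = 0.000629), Esam 4.56-fold (-2.19 ± 0.299, adjusted p = 0.000941) and Tek, on 13 counts at E15.5, 6.85-fold (-2.78 ± 0.347, adjusted p = 0.000615). Slc2a1 fell 3.91-fold (-1.97 ± 0.166, adjusted p = 0.000133) and Pecam1 3.4-fold (-1.77 ± 0.206, adjusted p = 0.000464). Cldn5, Flt1 and Mfsd2a fell by 2.67-fold, 2.64-fold and 2.22-fold, with adjusted p-values of 0.00381, 0.00666 and 0.00372. The differences between the genes' folds were not tested. Ly6c1 was not called (-0.55, 95% confidence interval -1.62 to 0.52, adjusted p = 0.403). Abcb1a went from 16 counts in the E14 libraries to 3 at E15.5, and in a fit without the filter its log2 fold change, which at so few counts depends on the offset added to them, was -2.15 with an adjusted p of 0.0608. All 8 calls were kept in each of the 20 alternative analyses.

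**Figure D2:**
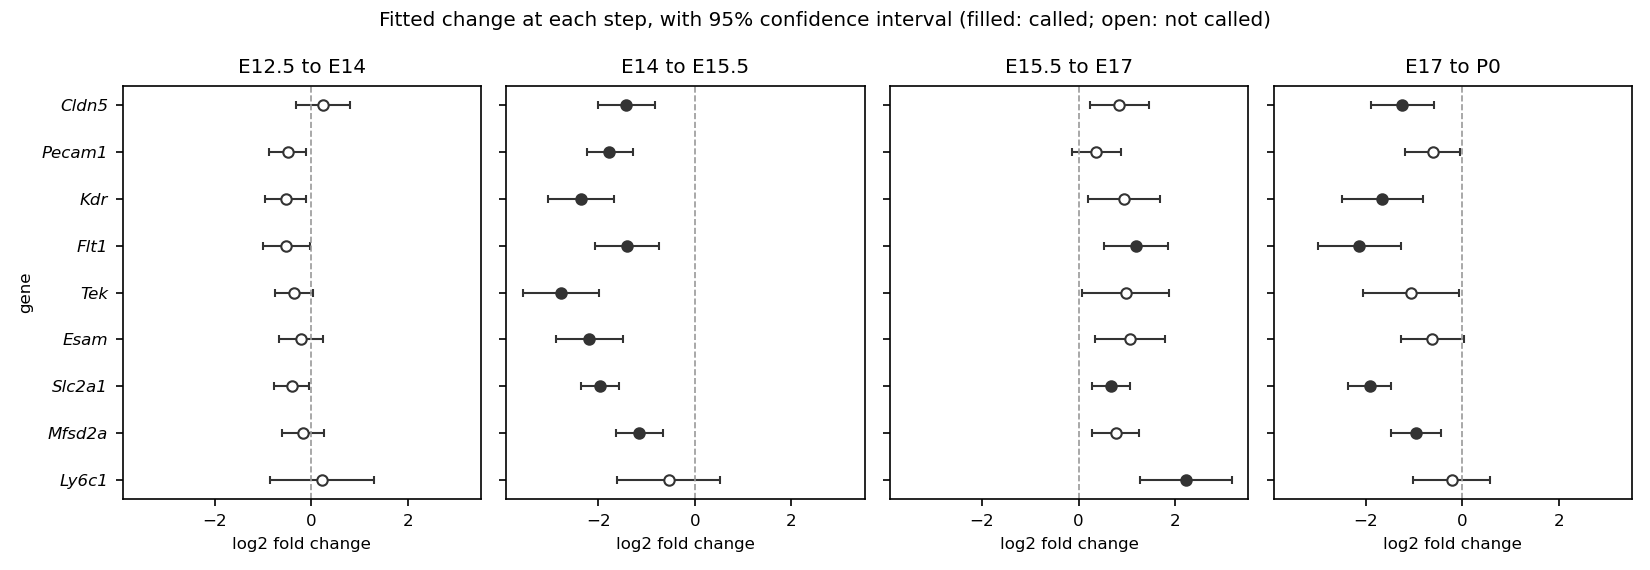
Fitted log2 fold change (horizontal axis) of the 9 tested genes (vertical axis) at each of the 4 steps between neighbouring stages, with 95% confidence intervals from limma-voom over all 10 libraries; filled points were called and open points were not. In the E14 to E15.5 panel 8 filled points lie below 0, from -2.78 for Tek to -1.15 for Mfsd2a.

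Genes that mark other non-neural cells moved at the same step. The 10 genes of meningeal fibroblasts, the cells of the brain's coverings, were all called lower (median log2 fold change -4.36), and their summed level went from 83.7 and 94.4 CPM at E14 to 3.86 and 3.76 at E15.5. All 8 tested genes of the choroid plexus epithelium, which makes cerebrospinal fluid, were called lower (median -5.59), and their sum went from 1160 and 1170 CPM to 14 and 11.4, with 2 and 4 of the 10 listed genes at 0. Of 11 microglia and macrophage genes 7 were called lower (median -0.87), with sums of 43.7 and 44.3 CPM before and 32.3 and 24.9 after, but 3 were called with total counts only and without E14 replicate 2, E15.5 replicate 1 or E15.5 replicate 2, and 4 with DESeq2 and without E14 replicate 1. Of 9 red blood cell genes 6 were called lower (median -0.64), with sums of 11100 and 10000 CPM before and 7420 and 6910 after. Among 14 genes of mural cells, the pericytes and smooth muscle cells that wrap vessels, 6 were called lower and 1 higher (median -1.18), while their sum went from 161 and 155 CPM to 178 and 171. Of these 14, 11 had negative log2 fold changes. The sum was held mostly by Acta2 (91.5 to 110 CPM) and Rgs5 (37 to 44.8 CPM), neither of them called. Reads that match several places were kept and Acta2 has close paralogues among the actins, so its level and the mural sum are uncertain. The part of these cell types, or of vessels dissected along with them, in the endothelial fall was not tested. Genes of these lists could pass the filter through E12.5 or E14 alone, so the counts of calls are a description only. Over all genes tested, 19.6% were called lower and 16.5% higher at this step.

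**Figure D3:**
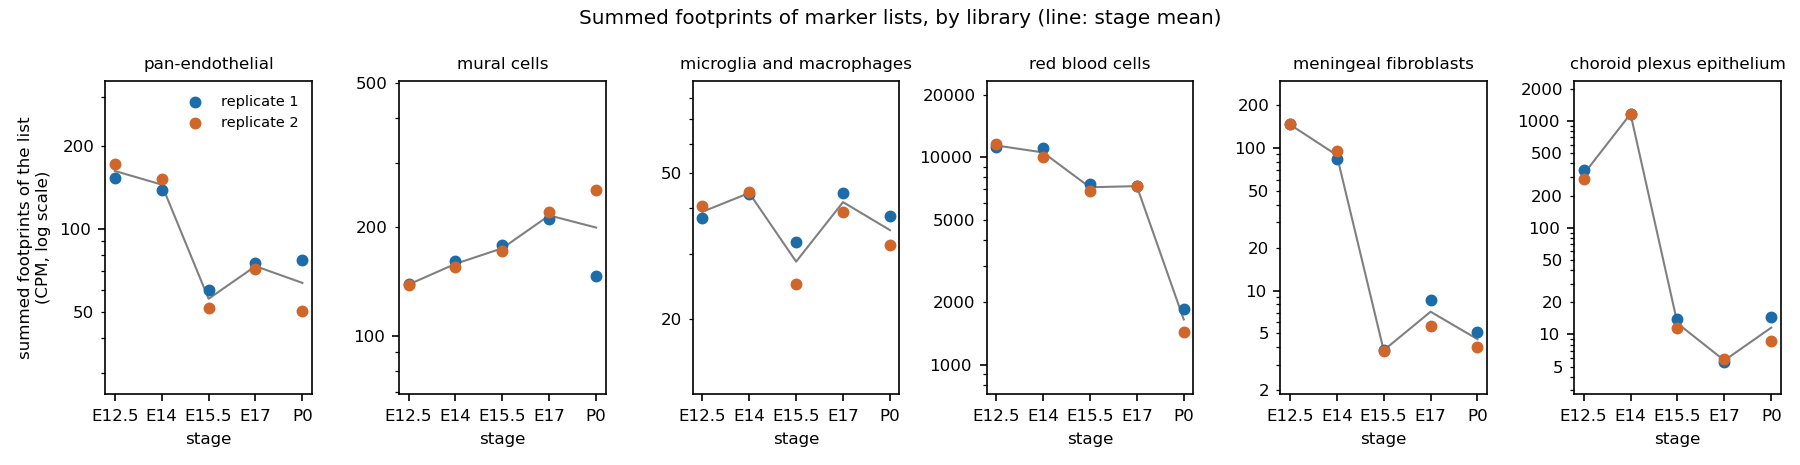
Summed footprint level of 6 marker lists in CPM (vertical axis, log scale, separate for each list) at the 5 stages (horizontal axis), with 1 point per library and a line through the stage means. Meningeal fibroblast genes went from 83.7 and 94.4 CPM at E14 to 3.86 and 3.76 at E15.5, and 30 further endothelial genes from 138 and 151 to 59.9 and 51.4. The mural sum was held mostly by Acta2, whose level is uncertain because of its actin paralogues, and Rgs5 at every stage.

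Other endothelial genes were then counted from wider lists. Of 28 further pan-endothelial genes that passed the filter, 25 were called lower from E14 to E15.5 and 0 higher (median -1.58, 26 with an unadjusted p under 0.05; edgeR called 23 and DESeq2 18). There were 15 calls without E14 replicate 2 and 12 without either E15.5 replicate 1 or E15.5 replicate 2, where the share of all genes called went from 36.1% to 22.8%, 20.3% and 20.8%. The deepest fall among those called was that of Cdh5, the VE-cadherin of endothelial adherens junctions, from 2.73 to 0.386 CPM (log2 fold change -2.76 ± 0.394, adjusted p = 0.00116). It rested on 13 and 9 counts at E15.5, and genes of this list could pass the filter through E12.5 or E14 alone. The summed level of the 30 listed genes was 138 and 151 CPM at E14 and 59.9 and 51.4 at E15.5, so the ranges did not overlap.

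Further junction and transporter genes of the barrier gave 18 called lower and 1 higher of 22 (median -1.3). Lsr, which encodes the receptor angulin-1 of tricellular junctions, fell from 7.5 to 1.43 CPM (-2.35 ± 0.206, adjusted p = 0.000148). The exception was Slco1c1, a carrier of thyroid hormone that astrocytes also express, which rose from 3.97 to 8 CPM (1.00 ± 0.135, adjusted p = 0.000907). Its E14 libraries held 82 and 136 counts, its E15.5 libraries 252 and 199, and its E17 libraries 806 and 696.

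Genes of leaky or caveola-rich endothelium also fell at this step, 6 of 6 (median -1.61), with 3 called when either of the E15.5 libraries was left out. Plvap, which encodes the diaphragm protein of fenestrated and immature brain vessels, went from 1.17 to 0.178 CPM (-2.66 ± 0.643, adjusted p = 0.013), on 18 and 49 counts at E14 and 9 and 2 at E15.5. The deep fall was therefore measured on few footprints.

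The VEGF, angiopoietin and tip cell list was mixed, with 7 called lower and 1 higher of 16 (median -0.39). In place of these 8 calls there were 3 without E14 replicate 2 or E15.5 replicate 2, while DESeq2 and the fit that left out E15.5 replicate 1 called 4. Vegfc, a ligand of the VEGF family, fell from 1.71 to 0.172 CPM (-3.42 ± 0.649, adjusted p = 0.00444), while Egln3, a prolyl hydroxylase that limits the response to hypoxia, rose from 3.19 to 6.06 CPM (0.94 ± 0.21, adjusted p = 0.00923). The E15.5 value of Vegfc rests on 10 and 1 counts. In the Wnt list, which holds ligands, receptors and targets known from barrier induction, 9 of 16 were called lower and 0 higher (median -0.89; 11 with an unadjusted p under 0.05; edgeR called 9 and DESeq2 8). Apcdd1, a Wnt target that limits the pathway, fell from 15.7 to 2.66 CPM, the deepest called fall of a gene with a mean of 20 or more counts there (-2.55 ± 0.202, adjusted p = 0.00011). Many genes of these 2 lists are also used by neural cells, so their levels are not endothelial alone. The same holds for some genes of the pan-endothelial and barrier lists.

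**Figure D4:**
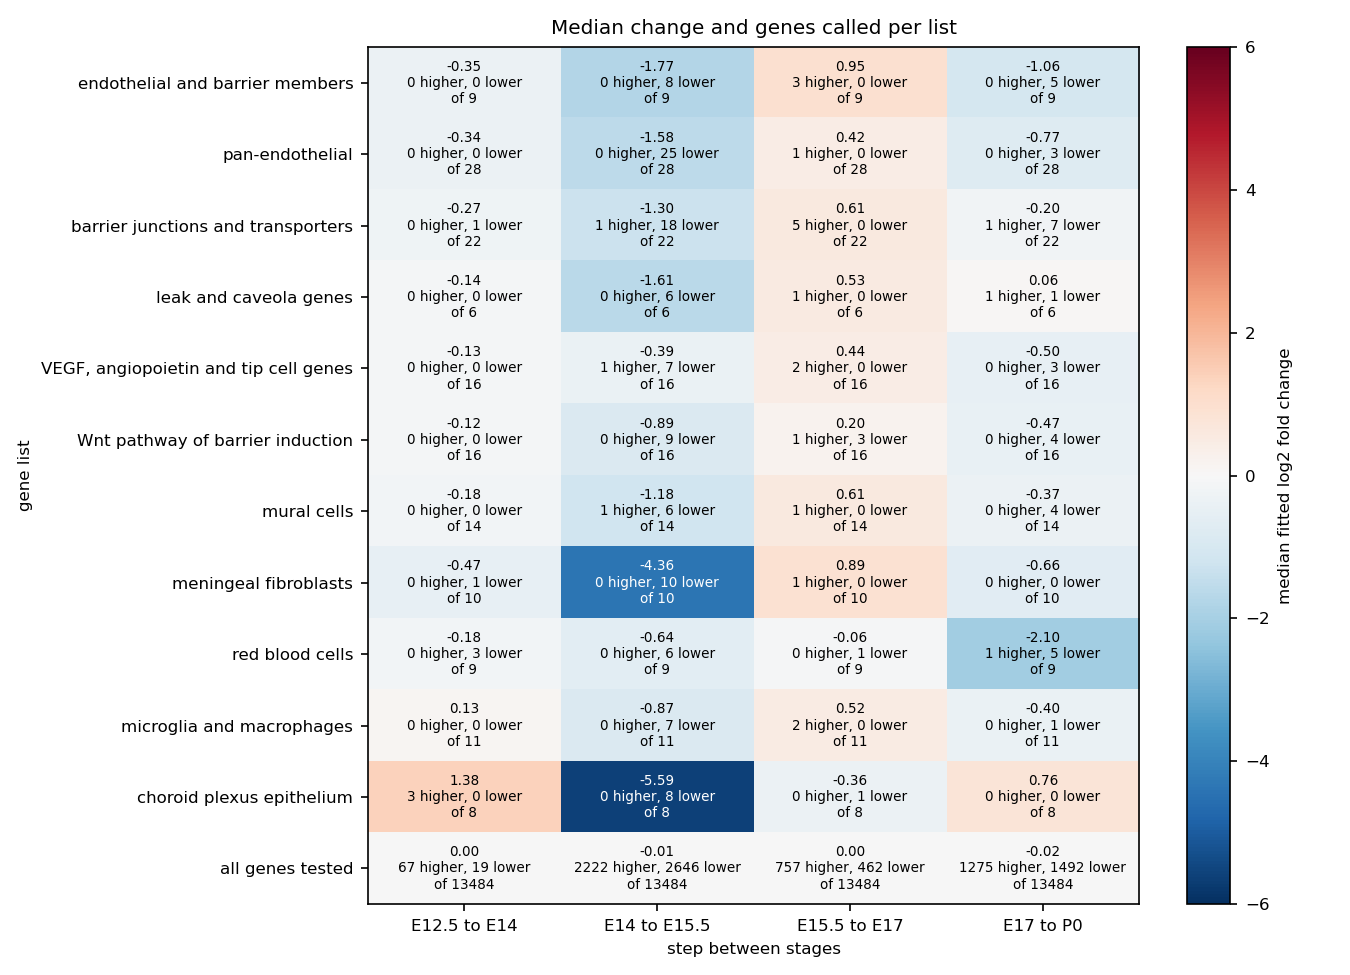
Median fitted log2 fold change of each gene list (vertical axis) at each step between stages (horizontal axis), shown as colour and as the first number in each cell, above the numbers of genes called higher and lower among those tested. The column of E14 to E15.5 is negative for every list, from -0.39 for VEGF, angiopoietin and tip cell genes to -5.59 for choroid plexus epithelium, whereas the median over all genes tested is -0.01.

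From E15.5 to E17 all 9 genes had positive log2 fold changes (median 0.947 beside -4.56e-05 over all genes), of which limma-voom called 3 as higher, beside 5.61% of all genes, and 0 as lower, beside 3.43%. Ly6c1 rose 4.68-fold (2.23 ± 0.415, adjusted p = 0.0191), Flt1 2.28-fold (1.19 ± 0.292, adjusted p = 0.0423) and Slc2a1 1.59-fold (0.67 ± 0.171, adjusted p = 0.0483). The other 6 had log2 fold changes between 0.37 for Pecam1 and 1.07 for Esam and adjusted p-values between 0.0633 and 0.353. Flt1 was below the filter's minimum at E15.5. The number of calls moved with that over all genes tested, 9.04% here. Without P0 replicate 1, P0 replicate 2 or both, 6 of the 9 genes were called, beside 20.8%, 20.9% and 20.8% of all genes. Without any single E12.5 or E14 library 1 was called, Ly6c1, beside 5.46% to 5.73%. Without E15.5 replicate 1, E15.5 replicate 2 or E17 replicate 2, limma-voom called 0 of all 13484 genes (2048, 2230 and 2318 with an unadjusted p under 0.05), and without E17 replicate 1 it called 18 of them, none of the 9 included. At this step 1 of 10 meningeal fibroblast genes was called higher (median 0.89), with sums of 8.54 and 5.67 CPM at E17, as were 2 of 11 microglial genes (median 0.52, sums of 44 and 39.1 CPM) and 1 of 14 mural genes (median 0.61, sums of 210 and 220 CPM). Their part in the endothelial values was not tested. Of the wider lists, 1 of 28 pan-endothelial genes, 5 of 22 barrier genes, 1 of 6 caveola genes and 2 of 16 VEGF and tip cell genes were called higher and 0 lower. With 1 library left out these counts were 0 to 5, 0 to 10, 0 to 1 and 0 to 5, each at 0 without E15.5 replicate 1, E15.5 replicate 2 or E17 replicate 2. They included Podxl, a sialomucin of the luminal surface (2.14 to 3.83 CPM, adjusted p = 0.034), Cav1, the main caveolin (31.6 to 56.4 CPM, adjusted p = 0.0238), Nrp1, a co-receptor for VEGF and semaphorins (8.66 to 13.4 CPM, adjusted p = 0.0279), and again Slco1c1 (8 to 25.9 CPM, adjusted p = 0.00233). In the Wnt list 1 of 16 was called higher and 3 lower, and 0 without any single E15.5 or E17 library. Lef1, a transcription factor of the pathway, fell from 7.38 to 3.27 CPM (adjusted p = 0.00743) and Apcdd1 rose from 2.66 to 4.8 CPM (adjusted p = 0.0498).

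From E17 to P0 all 9 genes had negative log2 fold changes (median -1.06 beside -0.0235 over all genes), and 5 were called lower, beside 11.1% of all genes, and 0 higher, beside 9.46%. Slc2a1 fell 3.77-fold (-1.91 ± 0.196, adjusted p = 0.00131), Flt1 4.37-fold (-2.13 ± 0.373, adjusted p = 0.00719), Kdr 3.15-fold (-1.66 ± 0.365, adjusted p = 0.017), Cldn5 2.37-fold (-1.25 ± 0.284, adjusted p = 0.019) and Mfsd2a 1.94-fold (-0.95 ± 0.227, adjusted p = 0.0222). Tek (-1.06), Pecam1 (-0.61), Esam (-0.62) and Ly6c1 (-0.22) were not called. Kdr and Flt1 were below the filter's minimum at P0, and of the 6 genes that met it at both stages 3 were called. Without P0 replicate 2, 1 gene was called, Slc2a1 (-1.38, adjusted p = 0.00153), although the share of all genes called went from 20.5% to 32.4%. The values of Kdr (-0.70, adjusted p = 0.437), Cldn5 (-0.43, adjusted p = 0.221), Mfsd2a (-0.50, adjusted p = 0.299) and Flt1 (-1.73, adjusted p = 0.138) were then nearer to 0. Without the shallow P0 replicate 1 there were 5 calls, beside 32% of all genes, without E17 replicate 1 there were 2, beside 4.11%, and without E17 replicate 2 there were 3, beside 8.88%. Red blood cell genes fell as well, 5 of 9 called lower and 1 higher (median -2.1), with sums of 7260 and 7250 CPM at E17 and 1860 and 1440 at P0. Mural genes had 4 of 14 called lower and 0 higher (median -0.37), with sums of 210 and 220 CPM at E17 and 146 and 252 at P0, and 1 called without P0 replicate 2, E17 replicate 1 or E17 replicate 2 and 8 without P0 replicate 1. Of 11 microglial genes 10 had negative log2 fold changes and 1 was called lower (median -0.40), with sums of 44 and 39.1 CPM and then 38 and 31.7. The part of these cells in the endothelial values was not tested. In the wider lists, 3 of 28 pan-endothelial genes were called lower and 0 higher, 7 of 22 barrier genes lower and 1 higher, 1 of 6 caveola genes in each direction, and 3 VEGF and tip cell genes and 4 Wnt genes of 16 each lower. With 1 library left out the called totals were 1 to 4, 2 to 10, 0 to 3, 3 to 7 and 1 to 5. Cdh5 fell from 0.829 to 0.216 CPM (adjusted p = 0.0467), Nrp1 from 13.4 to 3.71 CPM (adjusted p = 0.000776) and Slc38a5, a glutamine carrier, from 3.63 to 0.976 CPM (adjusted p = 0.00676). The P0 value of Cdh5 rests on 2 and 9 counts. Cgn, the tight junction protein cingulin, rose from 1.27 to 2.34 CPM (adjusted p = 0.0132), and Plvap from 0.293 to 0.936 CPM (adjusted p = 0.0495). Plvap had 9 and 8 counts at E17, below the filter's minimum, and 8 and 42 at P0.

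Over the embryonic course from E12.5 to E17, 7 of the 9 genes were called lower, beside 27.8% of all genes, and Ly6c1 was called higher (3.74-fold, 1.9 ± 0.413, adjusted p = 0.00478), beside 26.9%. The falls were 4.44-fold for Tek, 3.85-fold for Kdr, 3.7-fold for Pecam1, 3.26-fold for Slc2a1, 2.53-fold for Esam, 1.65-fold for Flt1 and 1.46-fold for Mfsd2a. Tek was below the filter's minimum at E17, and of the 8 genes that met it at both stages 7 were called. The call of Ly6c1 was lost without E12.5 replicate 2 (adjusted p = 0.0574), that of Flt1 without E12.5 replicate 1 or E17 replicate 1 (adjusted p = 0.0902 and 0.131), and that of Mfsd2a without any single library of E12.5, E14 or E17 (adjusted p 0.0534 to 0.201). The Flt1 call was also lost with DESeq2 (adjusted p = 0.223) and in limma-voom with total counts only (0.273). That of Mfsd2a was also lost with edgeR (0.0615) and DESeq2 (0.158). In limma-voom it was lost with no filter on low counts (0.0661) and with total counts only (0.595). Cldn5 was not called (-0.33, 95% confidence interval -0.90 to 0.25, adjusted p = 0.297). With P0 in place of E17, 8 genes were called lower, beside 32% of all genes, and Ly6c1 higher (3.21-fold, 1.68 ± 0.43, adjusted p = 0.00882), beside 30.1%. This last call was lost without E12.5 replicate 2 (adjusted p = 0.0913) or P0 replicate 2 (adjusted p = 0.0669). Slc2a1 and Kdr fell 12.3-fold (-3.62 ± 0.191, adjusted p = 1.85e-06) and 12.1-fold (-3.60 ± 0.338, adjusted p = 3.74e-05), and Mfsd2a and Cldn5 2.83-fold and 2.98-fold. With 1 library left out the log2 fold changes lay between -3.85 and -3.08 for Slc2a1 and between -3.78 and -2.65 for Kdr. Kdr, with 19 counts at P0, Flt1 and Tek were below the filter's minimum there. The 6 genes that met it at both stages were all called. Of the wider pan-endothelial list, 24 genes were called lower and 2 higher of 28 from E12.5 to P0, in all 26, against 15 without P0 replicate 2. Emcn, the endothelial sialomucin endomucin, went from 3.94 to 0.155 CPM, and Robo4, an endothelial guidance receptor, from 3.79 to 0.542 CPM. At P0 these values rest on few footprints, 0 and 13 counts for Emcn and 8 and 9 for Robo4. The comparisons with E12.5 share its libraries and include the adjacent steps, so their values are not separate evidence. Other cell types moved over the same course. From E12.5 to E17, 10 of 10 meningeal fibroblast genes (median -3.92), 8 of 8 choroid plexus genes (median -4.93) and 7 of 9 red blood cell genes (median -0.83) were called lower, and of 14 mural genes 6 were lower and 2 higher. From E12.5 to P0 the genes called lower were 10 of 10 (median -4.50), 7 of 8 (median -4.83) and 9 of 9 (median -3.11), and of 14 mural genes 8 were lower and 2 higher (median -1.53). Their part in the endothelial values was not tested.

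Because the endothelial genes fell, each barrier gene was also set against them within a library, as its log2 CPM minus the mean log2 CPM of Pecam1, Kdr, Flt1, Tek and Esam. This difference describes a shift between genes of the same library and was not tested. It rises wherever the reference genes fall more than the barrier gene. Kdr, Flt1 and Tek passed the filter through the stages where they are high. The reference genes together held 140 and 81 counts in the E15.5 libraries and 36 and 136 in those of P0, so the differences are a description only. For Ly6c1 the mean difference began at -0.79 ± 0.616 (SD, n = 2) in the E12.5 libraries and was -0.26 ± 0.481 in those of E14. It was 1.38 ± 0.417 in those of E15.5, 2.66 ± 0.518 in those of E17 and 3.47 ± 0.51 in those of P0. Its libraries did not overlap between E14 and E15.5, the step at which its own CPM was not called as changed.

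For Cldn5 the difference went from 1.42 ± 0.0601 at E12.5 to 2.09 ± 0.0709 at E14 and 2.79 ± 0.013 at E15.5, and stood at 2.71 ± 0.1 at E17 and 2.81 ± 0.58 at P0. For Mfsd2a it went from 0.53 ± 0.0281 to 0.79 ± 0.0129 and 1.73 ± 0.124 over the first 3 stages, with 1.58 ± 0.248 at E17 and 1.9 ± 0.184 at P0. In both genes the difference was larger in every library of E15.5, E17 and P0 than in any of E12.5 and E14. The size of this shift depends on the reference genes, whose log2 fold changes from E14 to E15.5 lay between -2.78 and -1.4. The 28 further pan-endothelial genes had medians of -1.58 at that step and -1.83 from E12.5 to P0. Cldn5 had -1.42 and -1.57 in these comparisons and Mfsd2a -1.15 and -1.5, so against that list both shifted less. Slc2a1 differed from Cldn5 and Mfsd2a: its difference stood between 3.71 and 4.04 in all 8 embryonic libraries and at 3.3 and 2.86 at P0. That of Abcb1a ranged from -3.35 to -2.31 in the embryonic libraries and was -1.94 and 0.34 at P0, on the few counts given above.

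**Figure D5:**
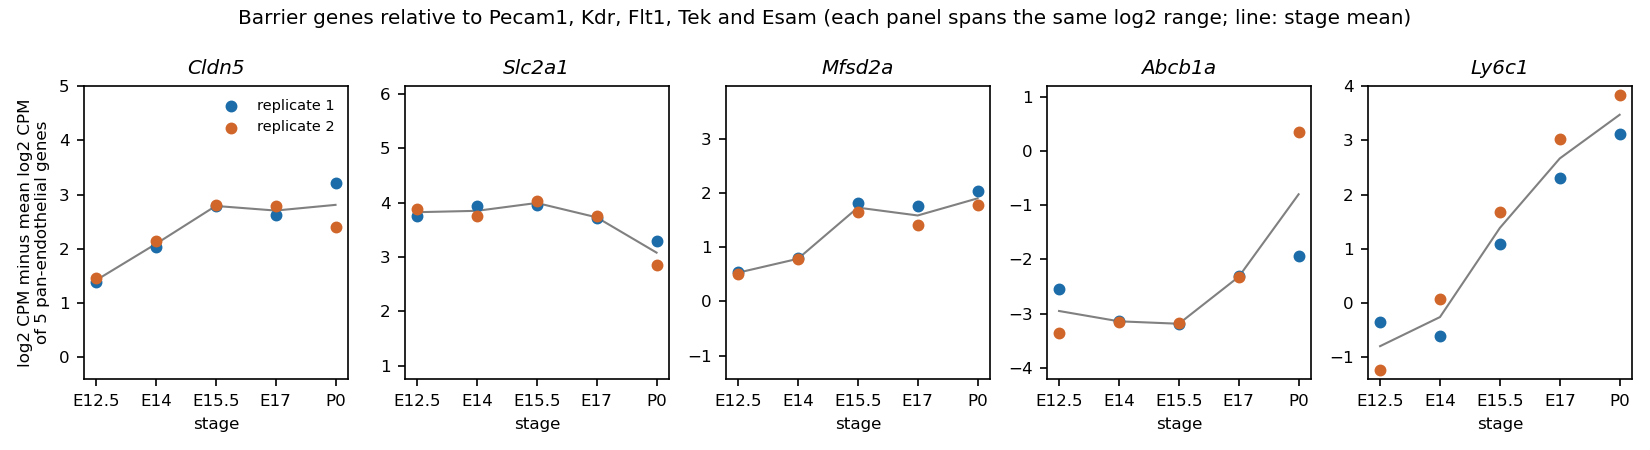
Log2 CPM of each barrier gene minus the mean log2 CPM of Pecam1, Kdr, Flt1, Tek and Esam in the same library (vertical axis, the same log2 range in every panel) at the 5 stages (horizontal axis), with 1 point per library and a line through the stage means. Ly6c1 went from a mean of -0.79 at E12.5 to 3.47 at P0, while Slc2a1 stayed between 3.71 and 4.04 in the embryonic libraries.

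As a description over the 10 libraries, which share their stages, the log2 CPM of the members other than Ly6c1 and Abcb1a were correlated with each other at Pearson's r between 0.812 and 0.975 (28 pairs, median 0.923). The 8 pairs of Abcb1a with these genes had r between 0.301 and 0.652, and the 9 pairs of Ly6c1 between -0.45 and 0.351. Among 9211 other genes that averaged 100 counts or more, those whose log2 CPM most resembled the mean pattern of Pecam1, Kdr, Flt1, Tek and Esam were Txndc5 (r = 0.993), Cd34 (0.99), Calr (0.989), Lgmn (0.989), Ptgfrn (0.988), Ppt2 (0.987), Hyou1 (0.987), Igf2 (0.987), Col4a1 (0.986) and Rpn2 (0.986). Of these, Cd34 is a surface marker of endothelium and blood progenitors and Col4a1 a collagen of the vascular basement membrane, while Txndc5, Calr, Hyou1 and Rpn2 serve protein folding and glycosylation in the endoplasmic reticulum of many cells. The closest to Slc2a1 were Plxnb2 (0.995) and Igfbp2 (0.994), to Cldn5 Sema4d (0.975) and Gm20425 (0.965), and to Mfsd2a Srprb (0.984) and Ctsz (0.983). Ly6c1 came closest to Spp1 (0.935) and Sparcl1 (0.914), and Abcb1a, at its low counts, to Entpd5 (0.934) and H2-K1 (0.93).

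Ly6c1 and Abcb1a each have a close paralogue, and how reads that match both were counted is not stated, so the values of these genes are uncertain in that respect. Ly6c2 had fewer counts than Ly6c1 in every library, and the share of Ly6c1 in their sum ranged from 60.6% (Clopper-Pearson 95% interval 48.3 to 72) in E15.5 replicate 2 to 78.7% (64.3 to 89.3) in E14 replicate 1. From E15.5 to E17 Ly6c2 went from 0.693 and 1.18 CPM to 1.81 and 3.68, with a log2 fold change of 1.53 ± 0.496 and an adjusted p of 0.0964, so it was not called. limma-voom called Abcb1b at none of the 6 comparisons, and Abcb1a held between 8.33% (0.211 to 38.5) of the sum in P0 replicate 1 and 66.7% (29.9 to 92.5) in E14 replicate 1. These intervals cover counting error only.

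Promoter sequences from RefSeq (build GRCm38.p6) were available for 8 of the 10 genes, as 9 windows from 250 bases before to 50 bases after a start site. The words searched on both strands were AGGAAG, a core bound by ETS factors of endothelium, ACGTG, the core of the hypoxia response element, and CTTTGA, a core bound by TCF/LEF factors of the Wnt pathway. AGGAAG was found in 3 member windows (Abcb1a, Flt1 and 1 of the 2 windows of Ly6c1) and in 35.4% of 32851 windows of all genes. ACGTG was found in 2 (Slc2a1 and Mfsd2a) and in 19.6%, and CTTTGA in 2 (Mfsd2a and Abcb1a) and in 16%. Such a word is a match of letters and not a measured site.

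The upstream stretches of Cldn5, Slc2a1 and Mfsd2a are shown because these barrier genes fell together from E14 to E15.5, with the words named above in capitals. They lie at chr16:18776597-18776846 on the plus strand, chr4:119108495-119108744 on the plus strand and chr4:122961195-122961438 on the minus strand, and none extends into the annotated gene.
Cldn5 promoter: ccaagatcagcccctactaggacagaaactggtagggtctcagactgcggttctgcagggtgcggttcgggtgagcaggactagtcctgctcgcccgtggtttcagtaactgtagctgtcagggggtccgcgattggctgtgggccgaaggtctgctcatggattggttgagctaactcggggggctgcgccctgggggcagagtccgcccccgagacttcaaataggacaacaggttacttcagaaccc
Slc2a1 promoter: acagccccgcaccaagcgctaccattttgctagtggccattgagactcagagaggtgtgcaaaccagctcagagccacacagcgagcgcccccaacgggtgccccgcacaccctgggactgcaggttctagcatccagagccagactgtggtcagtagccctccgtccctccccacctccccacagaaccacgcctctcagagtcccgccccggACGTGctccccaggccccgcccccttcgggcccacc
Mfsd2a promoter: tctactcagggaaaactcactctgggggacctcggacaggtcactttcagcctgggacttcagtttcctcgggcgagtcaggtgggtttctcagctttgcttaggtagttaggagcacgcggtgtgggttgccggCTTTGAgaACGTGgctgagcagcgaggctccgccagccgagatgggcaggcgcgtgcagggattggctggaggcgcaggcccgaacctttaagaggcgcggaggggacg
The Cldn5 stretch held none of these words, that of Slc2a1 held ACGTG, and that of Mfsd2a held CTTTGA and ACGTG close together.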

How the data were processed

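The authors deposited 1 table of whole-number footprint counts per gene with 1 column per library. They trimmed adapters with cutadapt, collapsed duplicate reads, removed tRNA, rRNA and snoRNA reads with Bowtie 2 and aligned the rest with STAR (2.7.0 in the submitters' processing notes), keeping reads that match several places, which leaves close paralogues uncertain. DeepShape-prime and tximport are named in the methods, but whether these counts come from them is not stated. Of 22373 identifiers, 22274 matched a symbol.

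The filter kept the 13484 genes whose 2 libraries of some stage summed to 32 footprints or more. Counts were scaled by TMM and tested in R 4.3.3 with limma-voom (limma 3.58.1, edgeR 4.0.16), the method named by the study. All 10 libraries entered 1 fit with a coefficient for each stage, and its two-sided moderated tests were adjusted by Benjamini-Hochberg over all genes kept. Replicates are pools of animals, and no test of 2 against 2 libraries alone can give an exact permutation p below 0.333. Footprint depth limits precision: libraries held 7544404 to 36129988 counts.

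All 10 genes were described in every comparison. From each wider list, the called gene with the largest rise and the largest fall at each step, and the 3 called genes with the largest absolute change from E12.5 to P0, with a mean of at least 20 counts, could be named. Acta2 and Rgs5 are named outside this rule because they held most of the mural sum. Members, lists and the rule were chosen with earlier results of these data known. Likeness was Pearson's r of log2 CPM over the 10 libraries. The code was tested on simulated counts. Alternatives were other scalings, no filter on low counts, edgeR quasi-likelihood, DESeq2 (1.42.0), sample quality weights, only the stages compared, no P0 libraries, a replicate block and leaving out each library. Coding lengths and the promoters of Pecam1 and Esam were not used here.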

Additional observations from a re-analysis of the deposited data

How the results depend on the processing

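The 8 calls from E14 to E15.5, of the 9 members tested, were kept in all 20 alternatives, and the member counts from E12.5 to E17 (6 to 8), from E12.5 to P0 (8 to 9) and over all stages (9) stayed within 1.5 times the values given. From E12.5 to E14, where 0 members were called, 1 was called without both P0 libraries, Slc2a1 (7.88% of all genes, against 0.638%), and leaving out 1 library gave 0 to 1. From E15.5 to E17, where 3 members were called, beside 9.04% of all genes, there were 1 with no filter on low counts (3.99% of all genes), 8 with sample quality weights (27.6%), 7 with only the stages compared (23.8%), 6 without both P0 libraries (20.8%) and 1 with the replicate block (6.07%), and leaving out 1 library gave 0 to 6. From E17 to P0, where 5 members were called, beside 20.5% of all genes, there were 2 with DESeq2 (16.5%), 1 with sample quality weights (5.18%) and 0 with only the stages compared, where limma-voom called 0 of 13484 genes and 2957 had an unadjusted p under 0.05, and leaving out 1 library gave 1 to 5 (1 without P0 replicate 2, 2 without E17 replicate 1 and 3 without E17 replicate 2). Calls kept in every alternative were 0 of 3 from E15.5 to E17 and 0 of 5 from E17 to P0. They were 5 of 8 from E12.5 to E17 and 8 of 9 from E12.5 to P0. From E15.5 to E17, edgeR called 2 members and DESeq2 2, and from E17 to P0 edgeR called 4. The cause of the differences between alternatives was not tested.

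Replicate numbers did not pair the libraries in one direction: the deviations of same-numbered libraries were correlated at over 0.1 in 5 of 10 pairs of stages (-0.633 to 0.427). Those 5, at 0.207 to 0.427, lay among E14, E15.5, E17 and P0, where E14 with E17 had -0.0444. The pairs with E12.5 had -0.633 to -0.108. Whether libraries share a batch in another arrangement was not tested. The replicate block takes same-numbered libraries as belonging together and is given here only. Cldn5 from E12.5 to E17 reversed to 0.0886 (log2) with total counts only. This scaling moved the median of all genes from -0.02 to 0.396 at that comparison. From E14 to E15.5 it moved the median from -0.00863 to 0.285, and the share of calls that were higher went from 45.6% to 72.7%. Leaving out 1 library gave Ly6c1 -0.296 to 0.627 from E12.5 to E14, reversed at -0.296 without E12.5 replicate 2 and -0.288 without E14 replicate 2, and from E17 to P0 leaving out 1 library gave -0.628 to 0.161, the latter without E17 replicate 2. Its rise from E15.5 to E17 was not called without any of the E15.5 or E17 libraries (adjusted p 0.0594 to 0.183), and its rise from E12.5 to E17 not without E12.5 replicate 2 (adjusted p = 0.0574). Tek, Flt1, Kdr and Abcb1a are limited by their few counts after E14.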

Other observations

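Of 14 mural cell genes, 8 were called lower and 2 higher from E12.5 to P0 (median log2 fold change -1.53). One of the exceptions was Higd1b, a pericyte-associated mitochondrial gene, which was called higher, from 0.628 to 15.6 CPM (log2 fold change 4.68 ± 0.32, adjusted p = 6.42e-06), with 14 and 13 counts at E12.5, 352 and 191 at E15.5 and 150 and 626 at P0. On the same list Notch3, the receptor of vascular smooth muscle and pericytes, was called lower (2.1 to 0.192 CPM, adjusted p = 9.79e-05), as was Vtn, vitronectin (6.6 to 1.02 CPM, adjusted p = 1.57e-05). The summed mural level was 139 and 138 CPM at E12.5 and 146 and 252 at P0. Acta2 (77.9 to 112 CPM) and Rgs5 (25.4 to 55.6 CPM) held most of it, and the Acta2 level is uncertain because of its actin paralogues.

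From E12.5 to P0, limma-voom called 2 of 11 microglial genes as lower, beside 32% of all genes, and 0 as higher, beside 30.1%. The 2 were Csf1r (2.7 to 1.44 CPM, adjusted p = 0.0105) and Cx3cr1 (5.32 to 3.19 CPM, adjusted p = 0.0175). An unadjusted p below 0.05 was reached by 3 of the 11, beside 66.3% of all genes. The edgeR test called 2 and DESeq2 called 0, and limma-voom called 0 without P0 replicate 2 and 4 without P0 replicate 1. Trem2 fell from E14 to E15.5 (1.9 to 0.573 CPM, adjusted p = 0.00452) and rose from E15.5 to E17 (0.573 to 1.56 CPM, adjusted p = 0.0373).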
